A study of Mus musculus with 6 samples.

Results

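Semaphorins of class 4 and class 7 were followed here as the 12 probe sets that the platform annotation gives to 6 genes, Sema4a, Sema4b, Sema4c, Sema4d, Sema4f and Sema7a, among 45037 probe sets in all. The family was taken up because Sema4c had shown a large difference between the sorted fractions of this series, so every Eomes+ against Eomes- value of these genes is given as a description, with no test. The cells were CD8 T cells from tumours of the mouse fibrosarcoma line MCA-205 in male C57BL/6 Eomes-GFP mice, in which GFP reports Eomes, a T-box factor of T cell and NK cell differentiation. Both fractions came from mice given aOX40, against a costimulatory receptor (250 ug on days 12 and 16), and aCTLA-4, against an inhibitory one (200 ug on days 12, 14 and 16), with harvest on day 19. The GFP-positive fraction is called Eomes+ and the GFP-negative one Eomes-, each with 3 microarrays numbered 1 to 3 in the labels. The labels name 3 independent experiments but do not tie an array to an animal or say whether animals were pooled, so the errors and p-values given measure the spread between arrays, which may be technical. Mice without treatment were not analysed here.

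Semaphorins are extracellular signalling proteins that share a domain of the same name and act mainly through plexins, receptors that change the activity of small GTPases and so the cytoskeleton and adhesion of the receiving cell. Class 4 members are single-pass membrane proteins, and Sema7a is held to the membrane by a lipid anchor. Several were first known from axon guidance and later from immune cells: Sema4d (CD100) is abundant on T cells, Sema4a takes part in T cell priming and in the stability of regulatory T cells, and Sema7a (CD108) appears on activated T cells and stimulates monocytes through an integrin.

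All 12 probe sets passed the filter on dim signals, which kept a probe set if at least 3 of the 6 arrays read it above their own 40th percentile, as 27766 did. That level lay between 5.70 and 5.72 log2 and is called the filter level below. The sort itself was visible in the brighter Eomes probe set, at 10.38, 9.86 and 8.38 log2 in Eomes+ cells (arrays 1, 2 and 3) against 6.85, 6.89 and 5.42 in Eomes- cells, although no probe set passed limma's adjusted test (0% of 27766; 3.37% had an unadjusted p under 0.05). Marker genes of several cell types varied with the array number. The mean of 7 of 8 listed CD8 T cell markers lay between 11.26 and 12.71 log2 and was lowest on array 3 of each fraction, and all 7 genes were above the filter level on every array. The mean of 12 tumour and fibroblast markers ran from 9.43 to 11.96 log2 and that of 11 macrophage and monocyte markers from 8.50 to 11.19, each highest on array 3 of both fractions. The mean of 3 neutrophil markers, all above the filter level on every array, ran from 6.33 to 9.20 log2. That of 4 endothelial markers ran from 5.49 to 6.74, and both means were highest on array 3 of each fraction. Dendritic cell markers averaged 5.67 to 6.05 log2, with Xcr1 and Cd209a below the filter level on all arrays, and B and plasma cell markers 4.63 to 4.95, with Ms4a1, Jchain and Blk below it on all. In RNA of a whole sorted fraction, fewer cells of a type and less RNA per cell cannot be told apart.

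Sema4c, a transmembrane semaphorin whose best known receptor is Plexin-B2, was lower in Eomes+ cells. Its only probe set (1433920_at) read 4.99, 7.30 and 6.81 log2 in Eomes+ cells (arrays 1, 2 and 3) and 8.88, 7.80 and 9.06 in Eomes- cells. Every Eomes+ array lay below every Eomes- array, with Eomes+ array 1 far below the rest and under the filter level. The means were 6.37 ± 1.22 against 8.58 ± 0.68 log2 (SD, n = 3 each), a difference of -2.21 log2 (SE 0.80), or 4.64-fold. It was the only one of the 12 probe sets with groups that did not overlap, and none lay apart on the higher side. Over all kept probe sets 8.06% had groups apart, 5.14% lower and 2.92% higher in Eomes+ cells, and 9 (0.0324%) had groups apart and lower by at least 4-fold, but the gene was chosen on this contrast and nothing is read from its place among them. The size rests in part on Eomes+ array 1: the difference was -1.53 log2 without that array and -1.38 without both arrays numbered 1.

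Other measures also differed between the fractions in their group means. All 7 CD8 T cell markers had a lower mean in Eomes+ cells (list means of 12.52, 12.28 and 11.26 log2 on arrays 1, 2 and 3 against 12.71, 12.71 and 11.59), while 11 of 12 tumour and fibroblast markers and 10 of 11 macrophage and monocyte markers had a higher one. The mean of 5 CD4 and regulatory T cell markers, 4 of them above the filter level on all arrays, was 7.26 to 7.52 log2 on the Eomes+ arrays and 7.56 to 8.05 on the Eomes- arrays. The ratio of 3' to 5' signal of the Gapdh control, a sign of RNA quality, was 1.55 to 1.88 log2 against 1.07 to 1.54. That of the Actb control averaged 0.13 log2 in Eomes+ cells against 0.05 in Eomes- cells, with overlapping values. The tumour and fibroblast marker mean was 9.43, 11.19 and 11.96 log2 in Eomes+ cells (arrays 1, 2 and 3) and 9.45, 10.44 and 11.91 in Eomes- cells, and that of the macrophage and monocyte markers 8.98, 10.44 and 11.19 against 8.50, 9.56 and 11.17. Without both arrays numbered 3 the Sema4c difference was -2.20 log2, and relative to the CD8 T cell marker mean of each array it was -1.90. The part of the other measures in the result was not tested.

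**Figure D1:**
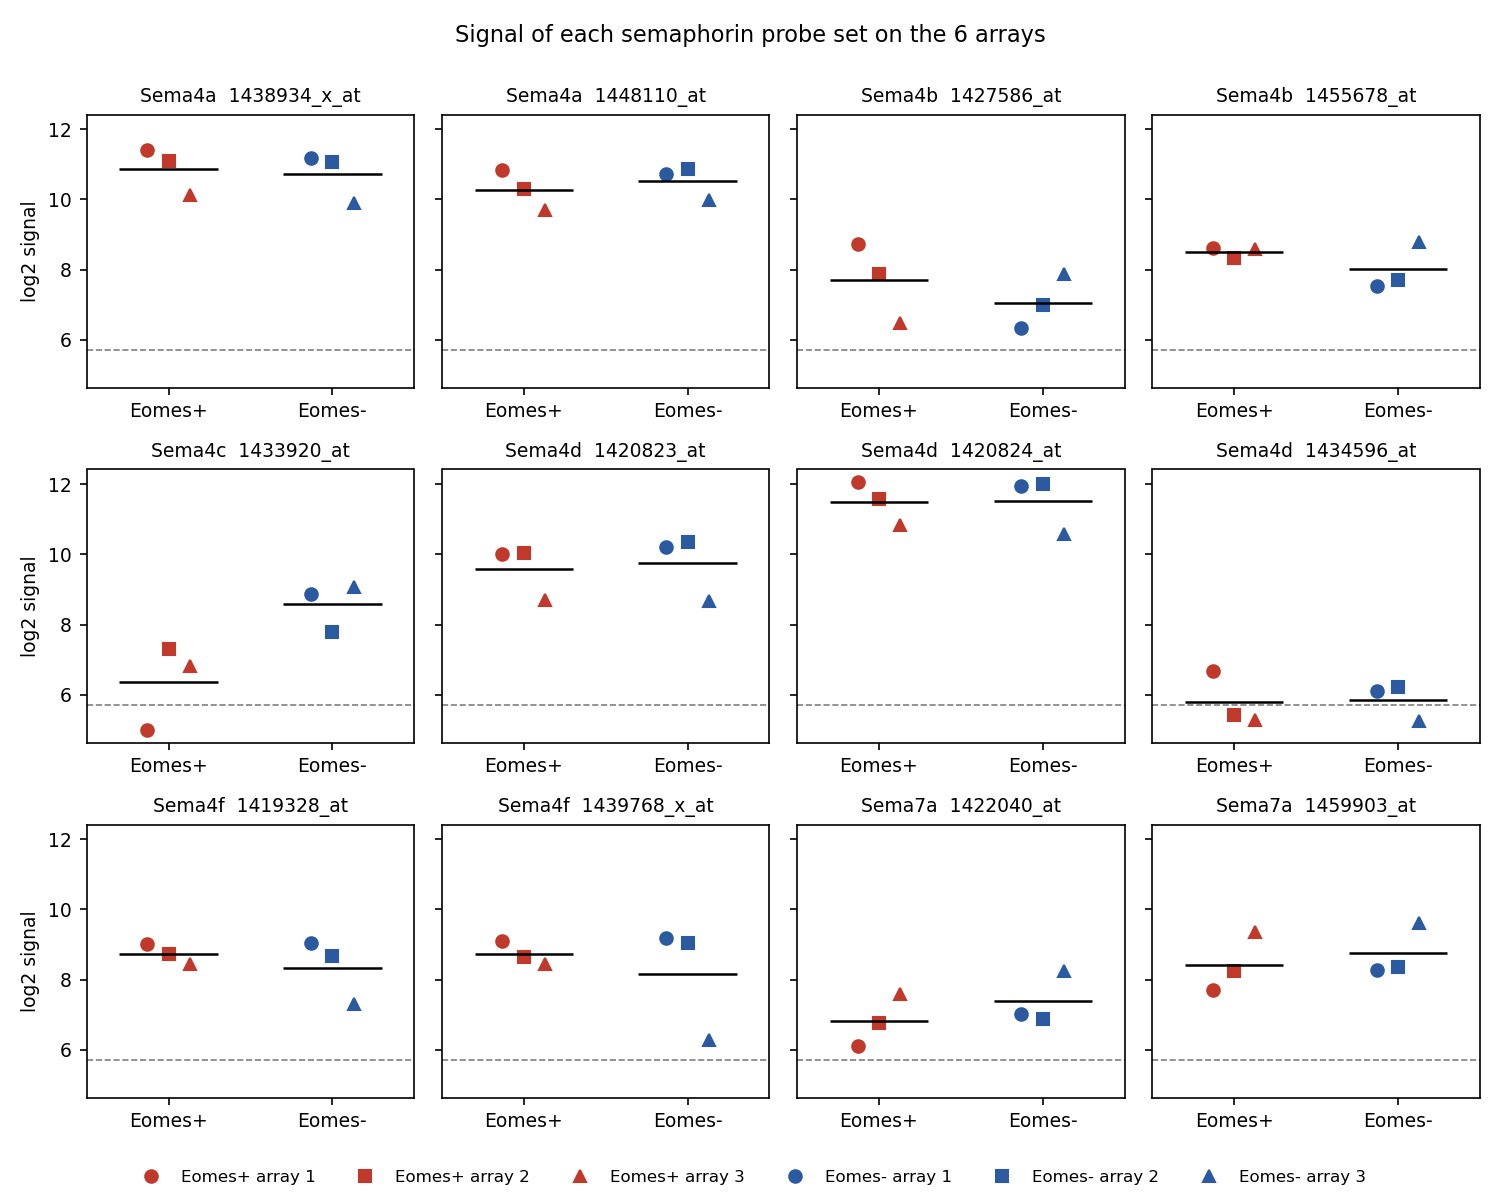
Log2 signal (vertical axis) of the 12 semaphorin probe sets on the 3 Eomes+ arrays (red) and the 3 Eomes- arrays (blue); the marker shape gives the array number, the black line the group mean and the dashed line the mean filter level. Sema4c is the only panel in which the colours do not overlap, and array 3 is the lowest of its fraction in all panels of Sema4a, Sema4d and Sema4f.

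The sequences around the start sites of Sema4c are shown because it is the member with the large difference in cells sorted on a T-box factor, beside a window of Sema4a, the only window of a member that holds the T-box motif searched. Sequences are from RefSeq on build GRCm38.p6, run from 250 bases before to 50 after each start on the gene's own strand, and were available for all 6 genes (13 windows). Capitals mark the motif AGGTGTGA, searched on both strands, and its inner part GGTGTG, which overlaps it by construction. These letters say nothing of whether the factor binds.
Sema4c, chr1:36558332-36558631, minus strand: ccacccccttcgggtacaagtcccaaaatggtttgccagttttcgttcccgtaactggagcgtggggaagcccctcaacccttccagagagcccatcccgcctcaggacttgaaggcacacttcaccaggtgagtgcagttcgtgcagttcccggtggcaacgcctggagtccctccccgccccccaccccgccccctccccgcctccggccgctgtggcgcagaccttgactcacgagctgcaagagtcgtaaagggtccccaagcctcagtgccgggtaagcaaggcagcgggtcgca
Sema4c, chr1:36557508-36557807, minus strand: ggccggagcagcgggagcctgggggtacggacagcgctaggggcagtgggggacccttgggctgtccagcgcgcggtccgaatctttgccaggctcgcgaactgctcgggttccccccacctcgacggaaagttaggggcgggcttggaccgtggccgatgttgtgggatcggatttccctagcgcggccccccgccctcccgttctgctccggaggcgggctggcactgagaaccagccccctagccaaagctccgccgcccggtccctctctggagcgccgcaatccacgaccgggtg
Sema4a, chr3:88461133-88461432, minus strand: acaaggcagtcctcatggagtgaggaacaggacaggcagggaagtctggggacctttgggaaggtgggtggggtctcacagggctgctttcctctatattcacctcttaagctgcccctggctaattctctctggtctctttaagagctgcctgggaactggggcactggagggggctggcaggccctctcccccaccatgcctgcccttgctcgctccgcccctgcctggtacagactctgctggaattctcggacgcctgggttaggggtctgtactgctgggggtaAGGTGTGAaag
Neither Sema4c window held AGGTGTGA or GGTGTG. The longer motif was in 1.28% of 32851 windows of the same length and the shorter in 19.0%. Of the 13 windows of the members, 1 held the longer motif, at base 40 after the start in Sema4a, and 4 held the shorter, in Sema4a, Sema4d and Sema4f. The Sema4c windows were rich in CG, with 30 and 19 CG pairs against a median of 7 over all windows. The windows of Sema4b (26 and 28) and Sema7a (23) were rich too, while those of Sema4a held 4 to 14, that of Sema4f 7 and those of Sema4d 2 or 3.

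Against its relatives, Sema4c stood apart in size, as the choice of the family implies. The differences of the other 11 probe sets ran from -0.56 to 0.63 log2 and none had groups apart. Taking the ratio of Sema4c to each relative within each array, the fraction difference was between -2.85 log2 (SE 1.33; Sema4b, 1427586_at) and -1.65 (SE 0.61; Sema7a, 1422040_at). The ratio was lower on every Eomes+ array than on every Eomes- array for 7 of the 11 probe sets, those of Sema4b, Sema4f and Sema7a and the Sema4a probe set 1438934_x_at. All 11 ratios share the Sema4c values on which the family was chosen, and the same held for 75.1% of the ratios of Sema4c to each of 27765 other kept probe sets, so the count is not particular to the relatives. It overlapped for the 3 of Sema4d and for the Sema4a probe set 1448110_at. The Sema4c difference minus the median difference of the relatives was -2.19 log2. It was -1.42 without Eomes+ array 1, -1.24 without both arrays numbered 1 and -3.30 without both numbered 2.

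**Figure D2:**
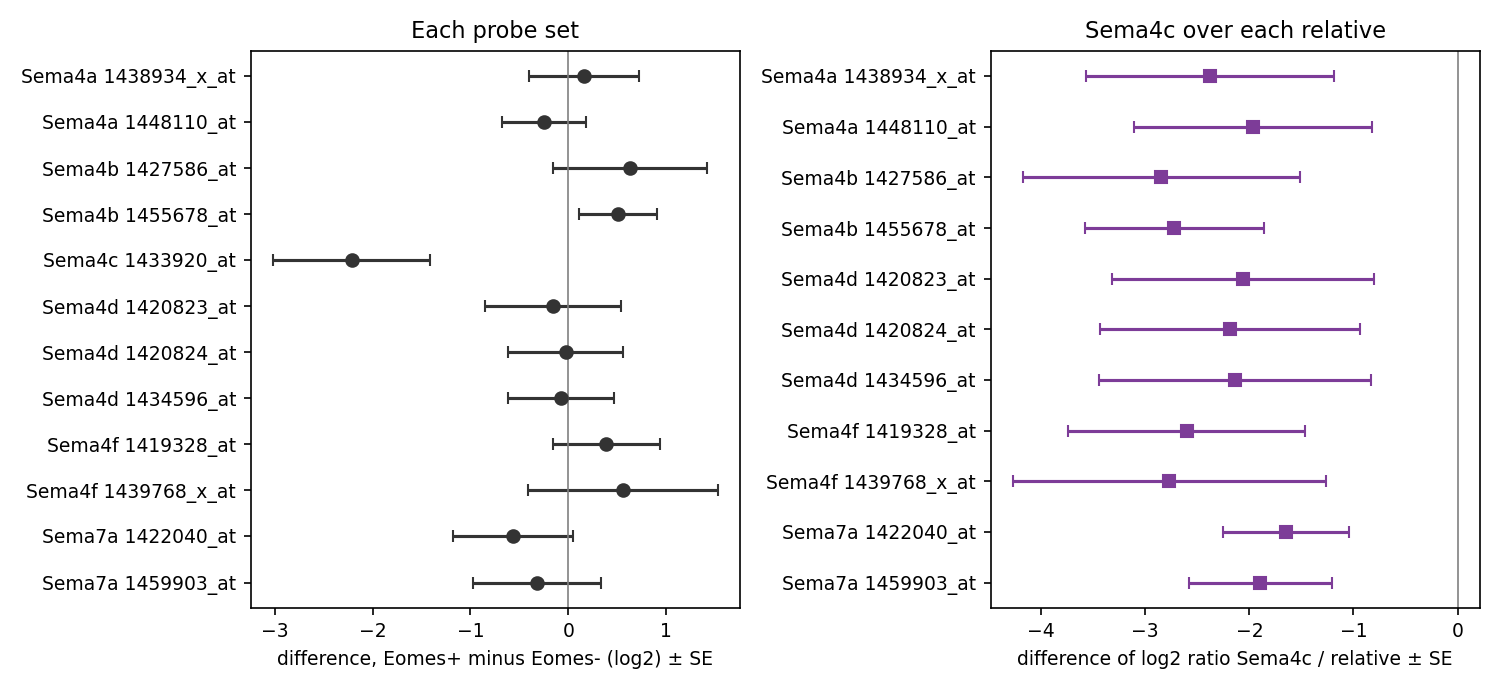
Left, the difference between fractions in log2 (horizontal axis, Eomes+ minus Eomes-) of each of the 12 probe sets, with bars of 1 SE from the spread over 3 arrays per fraction; right, the same for the within-array log2 ratio of Sema4c to each of the 11 probe sets of its relatives. Sema4c lies at -2.21 and all others between -0.56 and 0.63, while the ratios run from -2.85 to -1.65.

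Sema4d encodes CD100, the semaphorin best known from T cells, which is shed from the surface and acts through Plexin-B1 and, on B cells and macrophages, CD72. Its probe set 1420824_at read 12.06, 11.56 and 10.82 log2 in Eomes+ cells (arrays 1, 2 and 3) and 11.93, 12.01 and 10.58 in Eomes- cells. The low values were those of array 3 in each fraction, and the fractions overlapped (11.48 ± 0.62 against 11.51 ± 0.81, SD, n = 3 each; difference -0.03, SE 0.59). Probe set 1420823_at, annotated to the same transcript accession, read 10.02, 10.05 and 8.70 against 10.20, 10.34 and 8.68 (difference -0.15, SE 0.69). The third, 1434596_at, was above the filter level on 3 of the 6 arrays, with 6.68, 5.42 and 5.27 against 6.11, 6.23 and 5.25. No Sema4d probe set separated the fractions, and the sign of these small differences turned in 4 to 6 of 15 alternative settings.

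Sema4a, a semaphorin of dendritic cells and T cells that binds several plexins and neuropilin-1, overlapped between the fractions in both of its probe sets. Probe set 1448110_at read 10.84, 10.29 and 9.70 log2 in Eomes+ cells (arrays 1, 2 and 3) and 10.73, 10.85 and 9.99 in Eomes- cells (10.27 ± 0.57 against 10.52 ± 0.46, SD, n = 3 each; difference -0.25, SE 0.42). Probe set 1438934_x_at, of a kind open to cross-hybridisation, read 11.40, 11.09 and 10.13 against 11.17, 11.07 and 9.89 (difference 0.16, SE 0.56). The sign of the first turned without Eomes+ array 3 (0.04 log2), and that of the second without Eomes+ array 1 (-0.10) or Eomes- array 3 (-0.25). The probe sets thus differed in sign, by less than the spread, and both were lowest on array 3 of each fraction.

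Sema4f, a class 4 member studied mainly in the nervous system, was low on a single array. Probe set 1419328_at read 9.01, 8.73 and 8.44 log2 in Eomes+ cells (arrays 1, 2 and 3) and 9.03, 8.67 and 7.31 in Eomes- cells (difference 0.39, SE 0.55). Probe set 1439768_x_at, again of a kind open to cross-hybridisation, read 9.11, 8.64 and 8.43 against 9.19, 9.04 and 6.27 (difference 0.56, SE 0.97). Eomes- array 3 was the lowest in both, and without it the differences were -0.12 and -0.39 log2, so the sign of the Sema4f difference rests on that array.

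Sema4a, Sema4d and Sema4f shared their lowest arrays, though not their highest. Array 3 was the lowest of its fraction in both fractions for all 7 of their probe sets, a pattern found in 28.6% of all kept probe sets, and the CD8 T cell marker mean had the same low arrays (11.26 on Eomes+ array 3, 11.59 on Eomes- array 3). The range over the 6 arrays of Sema4d 1420824_at was 1.48 log2 as measured and 0.57 once the CD8 T cell marker mean of each array was subtracted. For Sema4a 1448110_at it went from 1.15 to 0.43. For Sema4f the ranges were 1.71 and 1.46 (1419328_at) and 2.92 and 2.49 (1439768_x_at). They were 1.42 and 1.02 for Sema4d 1434596_at, 1.65 and 0.67 for Sema4d 1420823_at and 1.51 and 0.58 for Sema4a 1438934_x_at. Subtracting the tumour marker mean instead gave ranges of 3.67 to 5.38 log2 for these 7 probe sets. These changes follow largely from array 3, low in these probe sets and the CD8 T cell mean and high in the tumour mean. The part of CD8 T cell RNA in these signals was not tested. The closest profiles among members of different genes were those of Sema4a 1438934_x_at and Sema4d 1420824_at, with a root mean square difference of 0.14 log2 over the 6 arrays after each probe set's own mean was subtracted.

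Sema7a, the lipid-anchored member, was instead highest on array 3. Probe set 1459903_at read 7.69, 8.24 and 9.35 log2 in Eomes+ cells (arrays 1, 2 and 3) and 8.26, 8.36 and 9.62 in Eomes- cells (8.43 ± 0.85 against 8.75 ± 0.76, SD, n = 3 each; difference -0.32, SE 0.66). Probe set 1422040_at read 6.11, 6.75 and 7.59 against 7.02, 6.87 and 8.25 (difference -0.56, SE 0.61). Without Eomes+ array 1 these differences were 0.05 and -0.21 log2, and without Eomes- array 3 they were 0.12 and -0.13. The high values in both were those of array 3, where tumour and macrophage markers were highest, and the fractions overlapped. Array 3 was the highest of both fractions for 22.3% of all kept probe sets and, of the members, for the 2 of Sema7a alone. The part of other cells' RNA in the Sema7a signal was not tested. Subtracting the CD8 T cell marker mean widened the range of Sema7a 1459903_at from 1.93 to 2.93 log2, and subtracting the tumour marker mean left it at 1.76. Both values follow in part from its high signal on array 3.

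**Figure D3:**
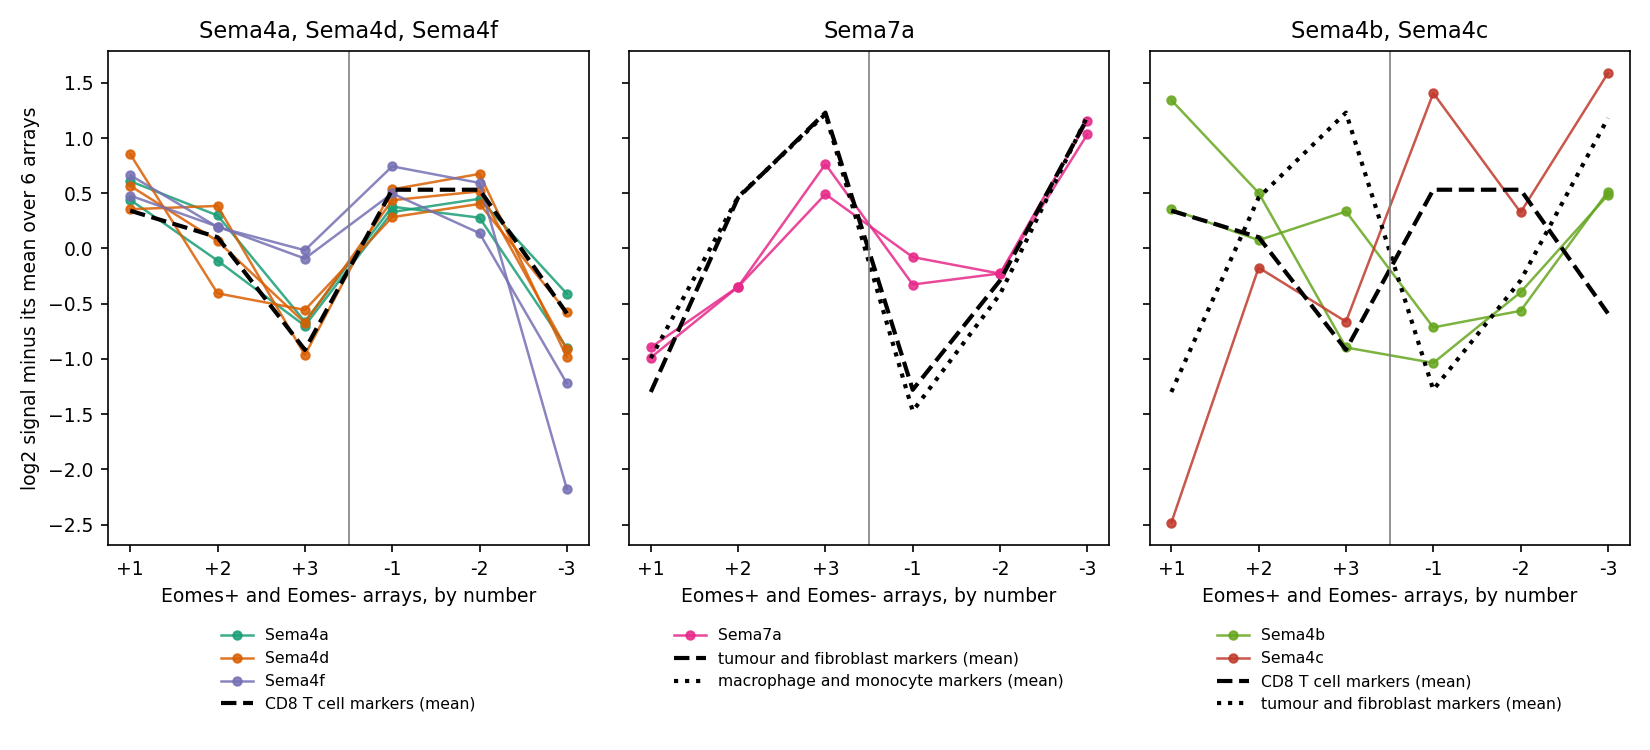
Log2 signal of each member probe set minus its own mean over the 6 arrays (vertical axis), by array (horizontal axis, Eomes+ then Eomes-, split by the grey line), with marker gene means as black broken lines. Sema4a, Sema4d and Sema4f are low on array 3 of each fraction like the CD8 T cell marker mean, Sema7a is high there like the tumour and macrophage means, and Sema4c is lowest on Eomes+ array 1 and highest on Eomes- array 3.

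Sema4b, a class 4 member that has been described on T cells, gave unlike profiles in its 2 probe sets. Probe set 1455678_at read 8.61, 8.33 and 8.59 log2 in Eomes+ cells (arrays 1, 2 and 3) and 7.54, 7.69 and 8.77 in Eomes- cells (difference 0.51, SE 0.40). Eomes- array 3 alone reached the Eomes+ values, and without it the difference was 0.89 log2. Probe set 1427586_at read 8.72, 7.88 and 6.48 against 6.34, 6.98 and 7.86 (difference 0.63, SE 0.79), and was lowest on array 3 among Eomes+ but highest there among Eomes-. Without both arrays numbered 3 its difference was 1.64 log2, and without both numbered 1 it was -0.24. The profiles of the pair differed by 0.68 log2 (root mean square), against 0.17 for the pair of Sema7a.

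By that same measure of likeness no member resembled Sema4c closely. The nearest were the Sema7a probe sets, at 1.02 and 1.17 log2, and the others lay between 1.51 and 2.04. The measure is not scaled and Sema4c was chosen for its large difference, so its distance from members with small differences follows in part from that choice. Among 23319 other kept probe sets with 1 gene, the nearest profiles were those of Ncoa7, a nuclear receptor coactivator (0.65 log2), Dnajb14, a chaperone partner (0.66), Klf9, a Krueppel-like transcription factor (0.68), Ern1, the sensor IRE1 of unfolded protein in the endoplasmic reticulum (0.69), and Klrb1b, an inhibitory lectin-like receptor of NK and T cells (0.69). Klrb1b read 5.56, 5.88 and 6.09 log2 in Eomes+ cells, the first below the filter level, and 8.27, 7.80 and 7.77 in Eomes- cells, with the groups apart, whereas the groups of the other 4 overlapped. Groups lay apart in this direction for 5.14% of all kept probe sets. These genes were picked for likeness to Sema4c on the same arrays, so lower Eomes+ values follow from the choice and nothing is read from them.

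The receptors of these semaphorins and their partners were not used to choose the members and were tested with limma in a fit over all 27766 kept probe sets. Each SE given for them is limma's, unlike the member SEs above. Of 62 listed genes 51 were tested, each by its brightest kept probe set, and limma called 0 at an adjusted p under 0.05, as it did over all probe sets (0%). At an unadjusted p under 0.05 there was 1, Rac1, where all 12571 genes gave 393. Rac1 was also the only one with groups apart and lower (4.66% of all genes), and 0 lay apart and higher (3.05%). Of the 51 genes 24 had a higher and 27 a lower mean in Eomes+ cells, and the median difference was -0.06 log2 against -0.02 over all genes. For each list the median was near 0: -0.07 for 10 other semaphorins, -0.01 for 9 plexins and neuropilins, -0.19 for 5 other receptors, 0.03 for 22 genes of plexin signalling and -0.10 for 5 proteases and tail partners.

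Nrp1, which encodes neuropilin-1, a coreceptor of class 3 semaphorins and a ligand partner of Sema4a on regulatory T cells, was lower on average in Eomes+ cells in the 3 probe sets that were above the filter level on all arrays. Probe set 1448944_at read 7.97, 7.26 and 7.73 log2 in Eomes+ cells (arrays 1, 2 and 3) against 9.80, 9.84 and 8.77 in Eomes- cells, with the groups well apart (difference -1.81, SE 0.38, 3.52-fold; limma adjusted p = 1.00, unadjusted p = 0.00213). Probe set 1418084_at read 7.95, 8.28 and 8.44 against 10.18, 10.05 and 9.17 (difference -1.58, SE 0.33). A further probe set, 1457198_at, was kept through its Eomes- arrays alone, so its lower Eomes+ values (at least 1.94-fold) followed from the filter and are not counted. In the brightest, 1448943_at, Eomes- array 3 at 8.65 fell among the Eomes+ values of 8.55, 9.01 and 8.72 (difference -0.75, SE 0.40). Groups lay apart in this direction for 5.14% of all kept probe sets. None of the 3 passed, and 1448944_at and 1418084_at passed with array weights alone (limma adjusted p = 0.0352 each; over all alternatives 0.0352 to 1.00). The CD4 and regulatory T cell markers, of which 4 of 5 were lower in Eomes+ cells, moved with Nrp1, and their part was not tested.

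Among the other semaphorins, Sema6d, a class 6 member that acts through Plexin-A receptors, was lower in Eomes+ cells in all 4 kept probe sets without passing the test. Its brightest, 1453055_at, read 9.02, 8.71 and 7.86 log2 in Eomes+ cells (arrays 1, 2 and 3) against 10.80, 9.88 and 8.81 in Eomes- cells (difference -1.30, SE 0.55; limma adjusted p = 1.00, unadjusted p = 0.0515). Eomes+ array 1 lay above Eomes- array 3, so the groups overlapped by a little. In 1448060_at they did not, at 8.64, 8.25 and 7.37 against 10.79, 10.09 and 8.68 (difference -1.77, SE 0.59). Over all kept probe sets, 5.14% had groups apart in this direction. In 1453055_at and 1448060_at array 3 was the lowest of each fraction, as were the CD8 T cell markers. The groups overlapped in 1446536_at (difference -1.47, SE 0.70), where Eomes+ array 1 was below the filter level at 4.87. They also overlapped in 1459318_at (difference -0.41, SE 0.47). Sema4g, the class 4 relative outside the 6 genes, was above the filter level on 1 array and was not tested.

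Plxnb2, the receptor of Sema4c and Sema4d, varied with the array number more than with the fraction: it read 7.28, 8.24 and 10.04 log2 in Eomes+ cells (arrays 1, 2 and 3) and 7.18, 7.75 and 10.39 in Eomes- cells (difference 0.08, SE 1.01). Array 3 was highest in both fractions, as were the tumour and macrophage markers, whose part was not tested. Plxnb1 was near the filter level (5.63 ± 0.17 against 5.82 ± 0.15 log2, SD, n = 3 each). Plxnc1, the plexin that binds Sema7a, read 10.21, 9.63 and 8.99 against 9.53, 8.66 and 7.74 in its brightest probe set (difference 0.97, SE 0.52), while its 3 other kept probe sets differed by -0.03 to 0.16. The integrin chains of the other Sema7a receptor differed by -0.38 log2 (SE 0.56) for Itga1 and -0.19 (SE 0.14) for Itgb1. A second Itga1 probe set differed by -0.74. The other 4 kept of Itgb1 disagreed, but were unlike in signal. The bright 1426918_at (means 11.04 in Eomes+ cells and 11.3 in Eomes- cells) was lower with groups apart (-0.26). Probe set 1427771_x_at differed by -0.06. The dim 1426919_at (6.67 against 6.07) differed by 0.60, and the dim 1426920_x_at (6.89 against 6.28) was higher with groups apart (0.61). Both _x_at probe sets are of a kind open to cross-hybridisation. Over all kept probe sets, 5.14% had groups apart and lower and 2.92% apart and higher. Cd72, the B cell and macrophage receptor of Sema4d, differed by 0.44 (SE 0.37), and Plxnd1 by -0.39 (SE 0.49). None of these passed limma's test (adjusted p = 1.00 each). Timd2, a receptor described for Sema4a, was below the filter level on all 6 arrays and was not tested.

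**Figure D4:**
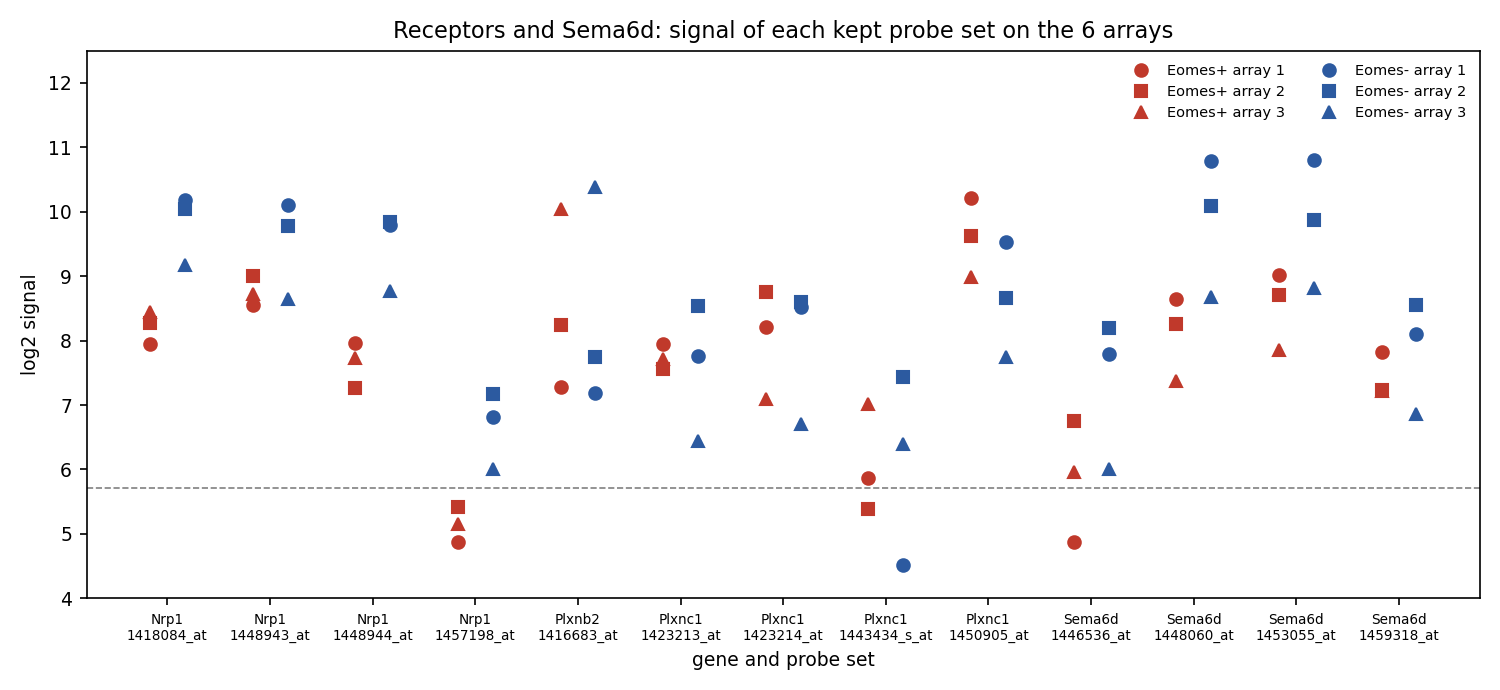
Log2 signal (vertical axis) of each kept probe set of Nrp1, Plxnb2, Plxnc1 and Sema6d on the 3 Eomes+ (red) and 3 Eomes- (blue) arrays, with the array number as marker shape and the mean filter level dashed. The groups are apart in 2 of the 3 Nrp1 probe sets above the filter level on all arrays (1457198_at was kept through its Eomes- arrays alone) and in 1 of 4 of Sema6d. Over all kept probe sets, 5.14% had groups apart in this direction. Plxnb2 splits by array number, with both arrays numbered 3 above 10.

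Gipc1, an adaptor whose PDZ domain binds the tail of Sema4c, read 8.66, 9.47 and 8.75 log2 in Eomes+ cells (arrays 1, 2 and 3) and 9.44, 9.46 and 9.63 in Eomes- cells (difference -0.55, SE 0.28; limma adjusted p = 1.00). Eomes+ array 2 lay among the Eomes- values, so the groups overlapped. Dlg4, which encodes the scaffold PSD-95 of synapses, differed by 0.24 (SE 0.50), and by 0.03 and -0.04 in its other kept probe sets. Of the proteases that release membrane proteins, Adam10 differed by -0.21 (SE 0.27) in its brightest probe set, by -0.49 (SE 0.23) in 1450104_at, where the groups lay apart, and by -0.47 (SE 0.39) in 1450105_at. In plexin signalling, Rac1, a GTPase of actin dynamics, was slightly lower with groups apart (12.33 ± 0.04 against 12.59 ± 0.13 log2, SD, n = 3 each; limma adjusted p = 1.00, unadjusted p = 0.0364), though its other kept probe set had the opposite sign. Rras2, a Ras-related GTPase, differed by 0.96 (SE 0.42) and, in its other probe set, by 0.15 (SE 0.63). Dpysl2, a mediator of semaphorin signals to microtubules, differed by -0.26 (SE 0.15) in its brightest probe set. In 1450502_at its groups lay apart (difference -0.50, SE 0.14; limma adjusted p = 1.00, unadjusted p = 0.0111). The groups apart for Adam10, Rac1 and Dpysl2 were all lower in Eomes+ cells, as were those of 5.14% of all kept probe sets. Erbb2, a kinase that can pair with B plexins, differed by -0.51 (SE 0.39), Plxna2 by 0.33 (SE 0.27), Sema3b by -0.61 (SE 0.52) and Sema3f by 0.19 (SE 0.23), none past the test. The second kept probe sets of the last 3 differed by 0.84, 0.04 and -0.11.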

How the data were processed

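The authors deposited log2 signals of 45101 probe sets on 6 arrays, between 1.68 and 14.95. The submitters' processing notes name Transcriptome Analysis Console and MAS5 without roles, and the sources used here do not say how probes were summarised; the log2 scale was read from the values. Array medians lay between 6.35 and 6.42. Of 45037 probe sets that are not controls, the platform annotation names 1 gene for 34945, several for 932 and none is listed for 9160. Symbols were updated by gene ID through RefSeq (34741 matched). The files state no genome build, so no coordinates are given beyond those of the RefSeq windows.

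The members and lists were chosen with earlier results of these data known. Groups follow the sample titles. Member differences are means over 3 arrays. Their SEs come from the spread within each fraction, unpaired, so they include any shift shared by arrays of one number. Other genes were tested with limma 3.58.1 in R 4.3.3 (intensity trend, two-sided, Benjamini-Hochberg over 27766 kept probe sets). SEs of those genes are limma's, moderated by the spread of other probe sets, so they are not the same statistic as the member SEs. The fits were tried on simulated data whose spread was capped below that of many probe sets here. That trial does not show what the fits can find at the spread of these arrays. Named were all member probe sets, Eomes, the 3 genes of smallest p per list, 10 fixed genes and the 5 nearest profiles to Sema4c. Further probe sets of the named genes were added after their values were seen. The number of arrays limits precision.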

Additional observations from a re-analysis of the deposited data

How the results depend on the processing

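Alternatives were the replicate block, quantile normalization, median centring, pseudocounts of 16 and 64, no filter, a filter at the 60th percentile, no trend, array weights, the probe set of smallest p or 1 probe set per relative, single arrays left out and both arrays of a number left out. The Sema4c difference ran from -3.07 to -1.38 log2 over its 15 alternatives. Since its groups did not overlap, leaving out arrays or adding a pseudocount could not turn its direction, and the replicate block leaves it unchanged. Single arrays left out gave -2.68 to -1.53. No other Sema4c probe set existed to try. The signal relative to the CD8 T cell markers was added after seeing the data. The Sema4c difference minus the relatives' median was -3.30 log2 without both arrays numbered 2. Array weights called 74 probe sets, against 0 in each other alternative, where 225 to 2748 had an unadjusted p under 0.05, and called 0 pathway genes by their brightest probe set, as did all others. The replicate block called 0 probe sets and 0 pathway genes (2748 probe sets and 7 genes at an unadjusted p under 0.05, against 936 and 1 without it). In the pairing check, the arrays numbered 1, 2 and 3 had correlated deviations of 0.595, 0.0989 and 0.628, but Eomes- array 2 correlated better with Eomes+ array 1 (0.302), so the numbers were not taken as pairs. With 3 arrays per fraction this check cannot exclude that they are pairs.

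Of the 15 alternatives for each member, signs turned in 2 for both Sema4a probe sets, 1 for Sema4b 1427586_at, 4, 6 and 6 for Sema4d, 1 and 2 for Sema4f and 3 for Sema7a 1459903_at. Among the other named genes, directions that turned were those of Sema3b (0.00 with array weights, 0.13 without both arrays numbered 3), Plxnd1 (0.19 without both numbered 1), and, without both numbered 2, Dlg4 (-0.12), Itga1 (0.06), Plxnb2 (-0.13) and Sema6d 1459318_at (0.04). Single arrays left out gave -0.83 to 0.14 for Plxnd1, -0.16 to 0.73 for Dlg4, -0.68 to 1.05 for Plxnb2 and -1.01 to 0.03 for Itga1. The cause was not tested. Signals near the filter level limit what dim probe sets can show.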
